A study of Arabidopsis thaliana with 18 samples.

Results

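Among 22746 probe sets measured in Arabidopsis seedlings, 50 gave less signal in the pif4pif5 double mutant than in wild type after both 1 h and 24 h of far-red light, without being strongly repressed by far-red light in wild type. They are described here across the study's 6 groups of 3 arrays. The groups were pif4pif5 seedlings in darkness, pif4pif5 after 1 h of far-red light, pif4pif5 after 24 h of far-red light, and wild-type seedlings in the same 3 conditions. Both genotypes were of the Columbia background, and the labels cite the mutant to earlier work without naming its alleles. All seedlings had 3 days of cold, then a red pulse (50 µmol/m2/s, 3 h) to start germination, then 3 days of darkness. Far-red light was then given for 1 h at 0.5 µmol/m2/s or for 24 h at 5 µmol/m2/s. Duration, fluence rate and seedling age therefore cannot be told apart at 24 h. RNA came from whole seedlings, so less RNA per cell and fewer cells of a type cannot be told apart.

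PIF4 and PIF5 are basic helix-loop-helix transcription factors that bind the active form of phytochrome, the plant's red and far-red light receptor. They promote elongation of the hypocotyl in darkness and in shade, and light acting through phytochrome removes or restrains them. In seedlings that have grown in darkness, far-red light is perceived mainly by phytochrome A. Genes that need these factors, directly or through other genes, would give less transcript in the double mutant.

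The members were chosen on the measured values themselves. A probe set had to differ by -0.7 or less at 24 h and by -0.2 or less at 1 h (pif4pif5 minus wild type, means of log2 intensity). Its wild-type mean at 24 h had to be at least 5. In wild type its change from darkness had to lie above -0.7 at 1 h and above -1 at 24 h. The differences at 1 h and 24 h are therefore given as descriptions, and no test of them is read for the members. Near the limit at 24 h, an unnamed member at -0.70064 and AT2G16595 at -0.70003 lay just inside, and AT3G03240 at -0.69877 and AT2G18690 at -0.69503 just outside. A further 5 genes were left out of the choice by name, of which FHL met the same limits. No filter on low signal was used, and all 50 members have values on all 18 arrays.

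Of the 50 members, 28 were assigned to 1 gene each, 3 to several genes and 19 to no gene in the platform's probe table. Members without a gene made up 38%, against 38.4% of all tested probe sets. Only 2 of those 19 are named, by their probe set. The mean level of the members in wild type at 24 h ran from 5.26 to 11.68 on the log2 scale, with a median of 7.11. AT5G57670 and AT5G57655 lie on chromosome 5 with 1 coding gene between them in assembly TAIR10.1, and 3 members are genes of the plastid genome.

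The arrays were not equally alike. Over all tested probe sets, the median signal of wild-type dark replicate C was 6.16, against 5.60 to 5.88 on the other arrays. Replicates of the dark wild type correlated least (lowest r = 0.967), and those of the other groups at 0.982 or above. PIF4 and PIF5 had no probe set assigned to them alone, so the genotype labels were not checked on these genes. Whether a member without an assigned gene measures PIF4 or PIF5 itself cannot be told from the probe table. EXPA7, the gene among 7 root markers with a probe set of its own, had group means from 3.31 to 3.73, near the dim end of the arrays. Whether replicates came from separate cultures is not in the labels, and the p-values reflect the spread among these arrays alone, and that spread may be technical.

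The median of the members lay below that of all probe sets in every condition, least in darkness and most at 24 h. The 50 members had a median difference of -0.28 in darkness, -0.43 after 1 h and -0.83 after 24 h. The medians over all probe sets were -0.05, -0.02 and -0.0027. In darkness the members ran from -3.56 to 0.50, at 1 h from -4.57 to -0.20 and at 24 h from -5.01 to -0.70. The order darkness, 1 h, 24 h of growing deficit held for 38 members. The rule required low values at 1 h and 24 h and set none on the mutant in darkness, so this order is a description of the choice as well as of the genes. Without wild-type dark replicate C, the median in darkness was -0.15.

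**Figure D1:**
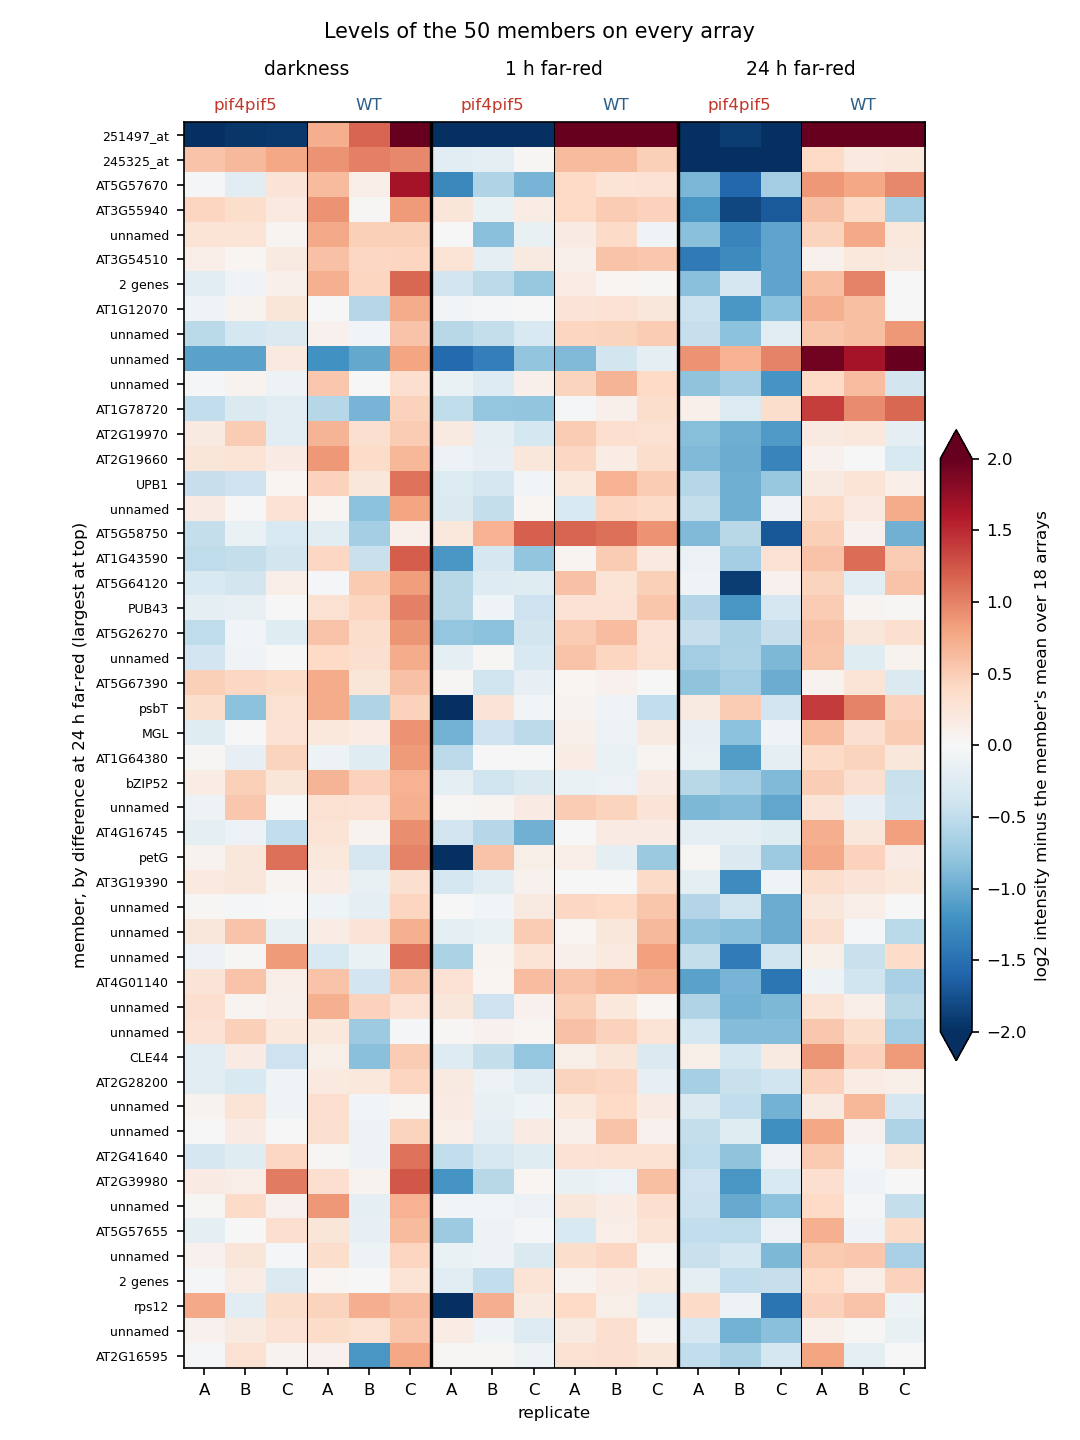
Signal of the 50 members (rows, ordered by the difference at 24 h) on the 18 arrays (columns, by condition, genotype and replicate), as log2 intensity minus the member's mean over all arrays; colours end at 2 in either direction. Most rows are bluest in the 3 pif4pif5 columns at 24 h, and wild-type dark replicate C is redder than the other dark arrays for most members.

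**Figure D2:**
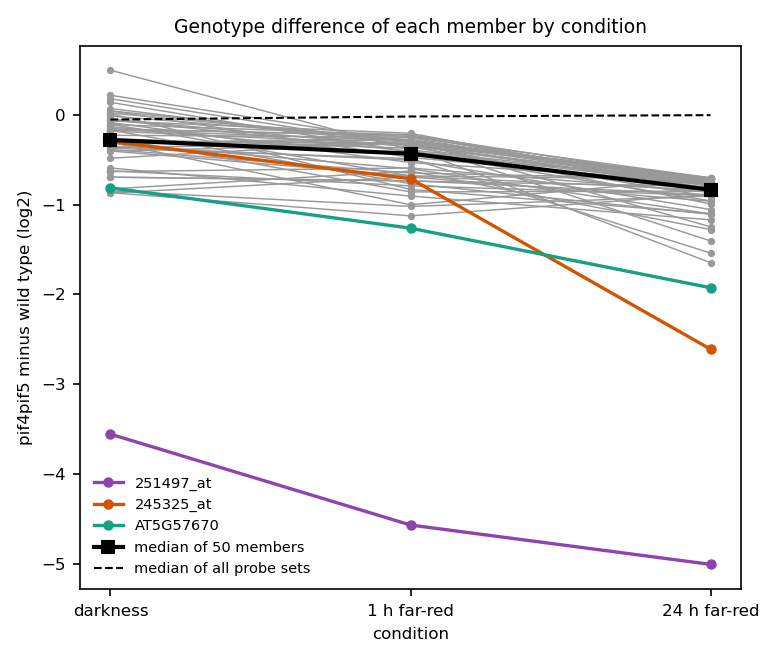
Difference pif4pif5 minus wild type (log2, y axis) in darkness, at 1 h and at 24 h of far-red light (x axis); each thin line is a member, the thick black line their median and the dashed line the median of all 22746 probe sets. The members' median passes through -0.28, -0.43 and -0.83, 251497_at lies below -3 throughout, and 245325_at drops away between 1 h and 24 h.

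At 24 h the mutant arrays all lay below the wild-type arrays for 40 of the 50 members, where 6.41% of all probe sets showed that separation. limma called 16 members lower there, against 0.286% of all probe sets called lower and 0.365% called in either direction. At 1 h the groups did not overlap for 26 members (9.58% of all probe sets), and 2 members were called lower (0.0132% of all, and 0.0264% called either way). The rule fixed these directions, so nothing is read from the counts. Both far-red conditions showed full separation for 22 members, a count under the same limit whose share over all probe sets was not computed.

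Darkness is the condition in which the rule set no limit on the mutant arrays, and wild-type dark arrays entered only through an upper limit. There 1 of the 50 members, 251497_at, was called lower, and it was the single probe set called lower among all 22746 (0.0044%). In either direction 0.0264% of all probe sets were called, and no member was higher. The groups did not overlap, with pif4pif5 below wild type, for 14 of the 50 members, which is 28%, against 4.68% of all probe sets. Among the 12988 probe sets that met the wild-type limits of the rule, that share was 3.47%. The opposite separation occurred for 0 members, and its share over all probe sets was not computed. Differences lay below 0 for 41 members (82%), against 61.7% of all probe sets and 51.2% of those meeting the wild-type limits.

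The dark separation was also counted without the array that stands apart. Groups that do not overlap stay apart when an array is left out, so this count could only stay at 14 or rise. The share over all probe sets could likewise not fall, so these counts do not test the separation. It was found for 15 members without wild-type dark replicate C, where 6.75% of all probe sets showed it. Fewer differences lay below 0 without replicate C, 33 of 50 against 37.5% of all probe sets. Without wild-type dark replicate B, 24 members separated and 11% of all probe sets did. Without wild-type dark replicate A, 15 members separated, which is 30%, against 20.1% of all probe sets, so that the members stood much closer to the background. In that setting 3 members were called lower in darkness, among 658 probe sets called lower in all (2.89%). At an unadjusted p under 0.05 limma gave 14 members as lower in darkness and 0 as higher, where 5.3% of all probe sets were lower. For 12 members both criteria held, and the share of all probe sets meeting both was not computed. The label under which these transcripts were grouped names far-red light, but 251497_at was called lower in darkness too, and 14 members had dark groups that did not overlap, of which the other 13 did not pass the adjusted threshold. For 20 members the dark difference was smaller than 0.2 in either direction, 28 lay at -0.2 or below and 2 at 0.2 or above.

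The deficit in darkness and that at 24 h come from separate arrays. Across the 50 members they correlated with Pearson's r = 0.785 and Spearman's rho = 0.401, and with 0.254 and 0.364 without 251497_at, so that the first value rests on 1 probe set. The points share their arrays, and the range at 24 h was cut by the rule. In all 3 conditions the groups did not overlap, with the mutant lower, for 9 of the 50 members and for 36 of all 22746 probe sets. The rule required lower mutant means at 1 h and 24 h, so much of this excess was built in. Of the 9 members, those named are 251497_at, 245325_at, UPB1, PUB43 and AT5G26270. A further 2, AT4G16745 and the pair AT4G10160 and AT4G10150, are named here after their values were seen.

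**Figure D3:**
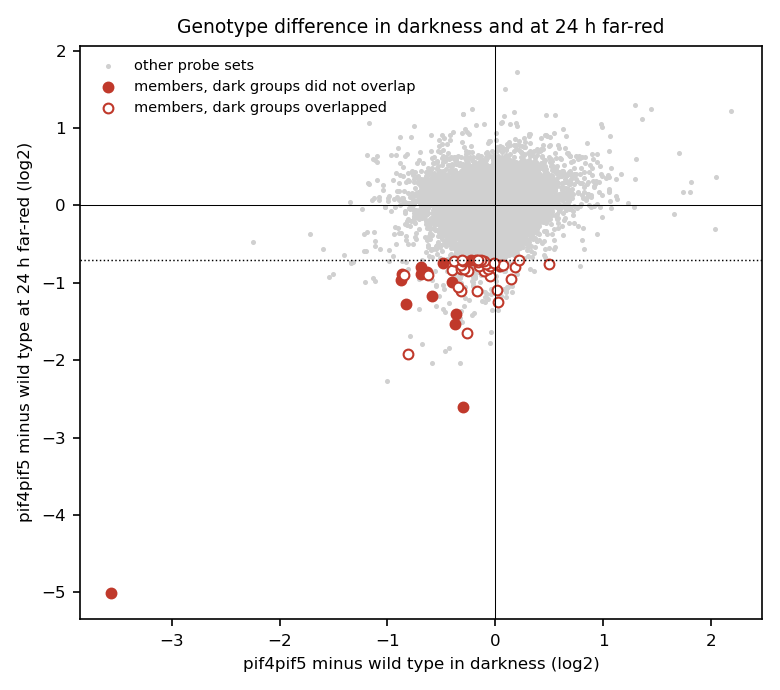
Difference pif4pif5 minus wild type in darkness (x axis) and at 24 h of far-red light (y axis), both in log2 units; red circles are the 50 members, filled for the 14 whose dark groups did not overlap, and grey points all other tested probe sets. The dotted line is the limit of -0.7 that the members had to meet, and filled circles lie left of 0 along most of the cloud, with 251497_at at -3.56 and -5.01.

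The strongest member, 251497_at, was dim in the mutant in every condition. It has no assigned gene, and whether it measures PIF4 or PIF5 itself was not tested. In darkness its log2 intensities were 3.34, 3.74 and 3.75 in pif4pif5 and 6.41, 6.85 and 8.24 in wild type. At 1 h they were 3.21, 3.45 and 3.45 in pif4pif5 and 8.08, 7.92 and 7.82 in wild type. At 24 h they were 3.25, 3.79 and 3.49 in pif4pif5 and 8.17, 8.54 and 8.84 in wild type. The mutant values were steady, with 17% to 27.7% of probe sets dimmer on the same array, against 77.9% to 89.6% in wild type after far-red light. In darkness the difference was -3.56 (SE 0.31, adjusted p = 2.98e-05), and at 24 h it was -5.01, a 32.2-fold lower signal. The mutant values lie as low as those of EXPA7, near the dim end of the arrays. The 32.2-fold ratio may therefore understate the change in transcript, but no detection level was estimated. The dark call was lost when only the 6 dark arrays were fitted (adjusted p = 0.0813). Without wild-type dark replicate C the dark difference was -3.02 and the call stood.

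The second unnamed probe set, 245325_at, was one of the brightest on the arrays and showed a difference that was small in darkness and large at 24 h. In the dark, 245325_at read 11.98, 12.06 and 12.18 in pif4pif5 and 12.31, 12.42 and 12.37 in wild type. 245325_at at 1 h stood at 11.2, 11.21 and 11.43 in the mutant and 12.04, 12.05 and 11.88 in wild type. For 245325_at the 24 h arrays gave 8.88, 9.29 and 9.04 in pif4pif5 and 11.81, 11.6 and 11.62 in wild type. The groups did not overlap in any of the 3 conditions, and the difference was -0.30 in darkness (SE 0.13, adjusted p = 0.637), -0.71 at 1 h and -2.61 at 24 h, or 6.11-fold. Within the mutant the level at 24 h differed from darkness by -3.01, against -0.69 within wild type.

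Several members belong to signalling and regulation. UPB1 (UPBEAT1) is a basic helix-loop-helix factor known from the root tip, where it represses peroxidase genes. Dark seedlings gave 6.85, 6.89 and 7.35 in pif4pif5 and 7.77, 7.54 and 8.4 in wild type for UPB1. For UPB1 the values at 1 h were 7.03, 6.98 and 7.26 in pif4pif5 and 7.52, 8.0 and 7.82 in wild type. UPB1 at 24 h stood at 6.73, 6.33 and 6.55 in the mutant and 7.48, 7.58 and 7.43 in wild type. The mutant was lower without overlap in every condition, by -0.87 in darkness (SE 0.20, adjusted p = 0.221), -0.69 at 1 h and -0.96 at 24 h. The dark difference was past the threshold without wild-type dark replicate A (-0.93, adjusted p = 0.0368). PUB43, a protein of the U-box family of ubiquitin ligases, was similar in size. PUB43 values in darkness were 5.97, 6.0 and 6.17 in pif4pif5 and 6.46, 6.59 and 7.17 in wild type. The 1 h arrays gave 5.61, 6.07 and 5.74 in pif4pif5 and 6.45, 6.44 and 6.71 in wild type. After 24 h, pif4pif5 read 5.58, 5.0 and 5.82 and wild type 6.66, 6.22 and 6.19. Its differences were -0.69 in darkness (SE 0.21, adjusted p = 0.502), -0.73 at 1 h and -0.89 at 24 h, again with no overlap.

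AT5G57670, which encodes a protein of the kinase superfamily, had the largest difference at 24 h among members with an assigned gene. In the dark, AT5G57670 read 5.81, 5.63 and 6.1 in pif4pif5 and 6.48, 5.98 and 7.51 in wild type. The 1 h arrays gave 4.55, 5.24 and 4.91 in pif4pif5 and 6.24, 6.12 and 6.12 in wild type. AT5G57670 at 24 h stood at 4.93, 4.28 and 5.15 in the mutant and 6.71, 6.62 and 6.8 in wild type. The dark groups overlapped through wild-type replicate B, and the dark difference was -0.81 (SE 0.29, adjusted p = 0.556). It was -0.38 without wild-type dark replicate C. In far-red light all mutant arrays lay below all wild-type arrays, by -1.26 at 1 h and -1.93 at 24 h, or 3.80-fold. AT3G55940 belongs to the phosphoinositide-specific phospholipase C family, which makes second messengers from membrane lipids. Dark seedlings gave 6.82, 6.73 and 6.59 in pif4pif5 and 7.29, 6.42 and 7.23 in wild type for AT3G55940. AT3G55940 at 1 h stood at 6.62, 6.26 and 6.54 in the mutant and 6.79, 6.9 and 6.84 in wild type. After 24 h, pif4pif5 read 5.23, 4.57 and 4.7 and wild type 6.97, 6.75 and 5.73. The genotypes differed by -0.27 in darkness (adjusted p = 0.941) with overlap, by -0.37 at 1 h and by -1.65 at 24 h (3.13-fold), where wild-type replicate C was the lowest of its group.

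bZIP52 is a basic leucine zipper transcription factor. bZIP52 values in darkness were 6.77, 7.1 and 6.87 in pif4pif5 and 7.3, 7.08 and 7.31 in wild type. For bZIP52 the values at 1 h were 6.45, 6.22 and 6.33 in pif4pif5 and 6.48, 6.5 and 6.78 in wild type. For bZIP52 the 24 h arrays gave 6.06, 5.95 and 5.73 in pif4pif5 and 7.1, 6.93 and 6.18 in wild type. The difference was -0.32 in darkness (adjusted p = 0.789), -0.25 at 1 h and -0.82 at 24 h. Wild-type replicate C at 24 h stood below the other wild-type arrays and close to the mutant. CLE44 encodes a CLE peptide of the kind that keeps vascular stem cells dividing. In the dark, CLE44 read 5.76, 6.14 and 5.57 in pif4pif5 and 6.09, 5.14 and 6.49 in wild type. CLE44 at 1 h stood at 5.72, 5.5 and 5.2 in the mutant and 6.1, 6.22 and 5.7 in wild type. For CLE44 the 24 h arrays gave 6.09, 5.63 and 6.16 in pif4pif5 and 6.87, 6.44 and 6.83 in wild type. The dark difference of CLE44 was -0.08 (SE 0.27, adjusted p = 0.997), and the sign turned without wild-type dark replicate C (0.21). It stood -0.53 lower at 1 h and -0.75 lower at 24 h, and wild type at 24 h was 0.81 above its dark level, against 0.14 in the mutant.

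**Figure D4:**
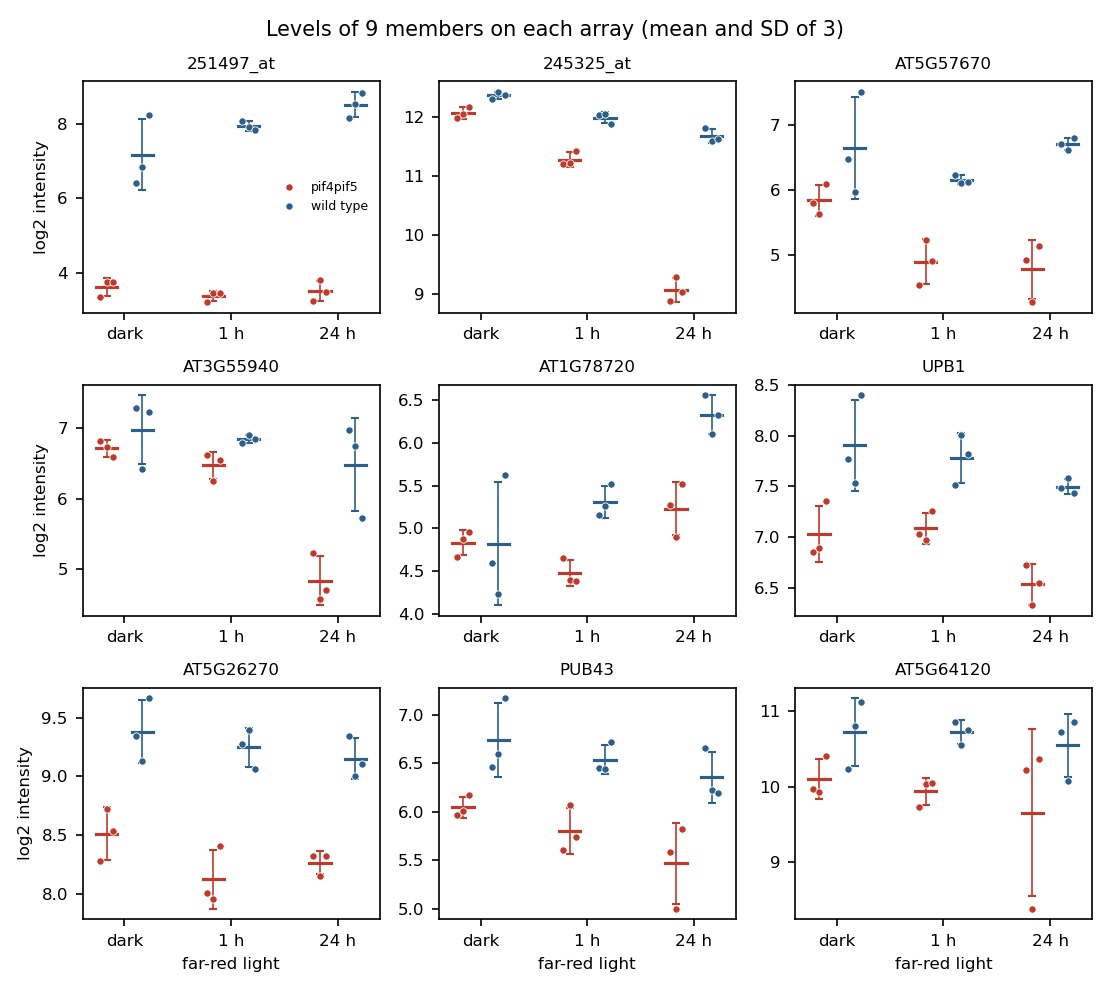
Log2 intensity (y axis) of 9 members on each array by condition (x axis), pif4pif5 in red left of wild type in blue; points are arrays, bars the mean and SD of 3 arrays. For 251497_at, 245325_at, UPB1, AT5G26270 and PUB43 the red and blue points are apart in every condition, and in AT5G64120 a single mutant array at 8.38 pulls the mean down at 24 h.

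The enzymes among the members included a peroxidase, an amino acid lyase, a protease and a sugar isomerase. AT5G64120 (PRX71) is a class III peroxidase, an enzyme of the cell wall that acts on hydrogen peroxide. Dark seedlings gave 9.97, 9.92 and 10.41 in pif4pif5 and 10.24, 10.81 and 11.12 in wild type for PRX71. For PRX71 the values at 1 h were 9.73, 10.03 and 10.05 in pif4pif5 and 10.86, 10.56 and 10.76 in wild type. PRX71 at 24 h stood at 10.22, 8.38 and 10.37 in the mutant and 10.73, 10.07 and 10.86 in wild type. At 1 h the groups were apart, by -0.79, while in darkness (-0.62, SE 0.37, adjusted p = 0.784) and at 24 h (-0.90) they overlapped. Mutant replicate B at 24 h lay far below the other mutant arrays, and without it the difference there was -0.26, short of the limit. MGL, methionine gamma-lyase, breaks down methionine and feeds isoleucine synthesis. MGL values in darkness were 9.85, 10.09 and 10.38 in pif4pif5 and 10.3, 10.24 and 10.99 in wild type. The 1 h arrays gave 9.14, 9.68 and 9.57 in pif4pif5 and 10.19, 9.97 and 10.27 in wild type. After 24 h, pif4pif5 read 9.93, 9.27 and 10.02 and wild type 10.71, 10.41 and 10.61. Its differences were -0.40 in darkness (adjusted p = 0.751), -0.68 at 1 h and -0.84 at 24 h, with full separation in far-red light only, and -0.60 at 24 h without mutant replicate B.

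AT3G19390 encodes a papain-type cysteine protease. In the dark, AT3G19390 read 10.17, 10.21 and 10.03 in pif4pif5 and 10.13, 9.84 and 10.31 in wild type. AT3G19390 at 1 h stood at 9.62, 9.76 and 10.07 in the mutant and 9.98, 9.98 and 10.37 in wild type. For AT3G19390 the 24 h arrays gave 9.8, 8.71 and 9.89 in pif4pif5 and 10.33, 10.24 and 10.19 in wild type. The dark difference was 0.05 (SE 0.23, adjusted p = 0.998), and the differences in far-red light were -0.30 and -0.78. The value at 24 h was -0.41 without mutant replicate B, the array that was also low for PRX71 and MGL. AT5G57655 encodes a xylose isomerase family protein. AT5G57655 values in darkness were 9.59, 9.78 and 10.1 in pif4pif5 and 10.001, 9.6 and 10.4 in wild type. For AT5G57655 the values at 1 h were 9.04, 9.66 and 9.72 in pif4pif5 and 9.46, 9.91 and 10.05 in wild type. For AT5G57655 the 24 h arrays gave 9.27, 9.26 and 9.65 in pif4pif5 and 10.48, 9.7 and 10.15 in wild type. It differed by -0.18 in darkness (adjusted p = 0.970), by -0.33 at 1 h and by -0.71 at 24 h, close to the limit. Its neighbour AT5G57670 had a 24 h difference of -1.93.

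Further members with an assigned gene are less well characterised. AT5G26270 had one of the most even deficits. Dark seedlings gave 8.28, 8.72 and 8.54 in pif4pif5 and 9.34, 9.13 and 9.66 in wild type for AT5G26270. AT5G26270 at 1 h stood at 8.01, 7.95 and 8.41 in the mutant and 9.28, 9.4 and 9.06 in wild type. After 24 h, pif4pif5 read 8.32, 8.15 and 8.32 and wild type 9.34, 9.0 and 9.1. The groups were apart in every condition, by -0.87 in darkness (SE 0.17, adjusted p = 0.120), -1.12 at 1 h and -0.89 at 24 h. The dark difference was past the threshold with quantile normalization (adjusted p = 0.0481), after a shift of the arrays to one median (0.0279) and without wild-type dark replicate A (0.0241). AT1G43590, annotated as a pseudogene, was dim. In the dark, AT1G43590 read 4.1, 4.14 and 4.25 in pif4pif5 and 5.02, 4.17 and 5.83 in wild type. The 1 h arrays gave 3.46, 4.28 and 3.82 in pif4pif5 and 4.67, 5.13 and 4.82 in wild type. AT1G43590 at 24 h stood at 4.5, 3.94 and 4.9 in the mutant and 5.18, 5.73 and 5.13 in wild type. Its dark difference of -0.85 (SE 0.32, adjusted p = 0.587) was close in size to those under far-red light, -1.02 and -0.90, but the dark groups overlapped.

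AT3G54510 is related to the early-responsive to dehydration membrane proteins. AT3G54510 values in darkness were 6.59, 6.5 and 6.64 in pif4pif5 and 7.05, 6.88 and 6.89 in wild type. For AT3G54510 the values at 1 h were 6.74, 6.26 and 6.65 in pif4pif5 and 6.57, 7.03 and 7.0 in wild type. For AT3G54510 the 24 h arrays gave 5.05, 5.19 and 5.41 in pif4pif5 and 6.54, 6.68 and 6.64 in wild type. Separation was complete in darkness, by -0.36 (SE 0.15, adjusted p = 0.635), and at 24 h, by -1.40 (2.65-fold), but not at 1 h. AT2G19660, with a cysteine and histidine rich C1 domain, was apart in the same conditions. In the dark, AT2G19660 read 7.41, 7.44 and 7.34 in pif4pif5 and 8.03, 7.54 and 7.83 in wild type. AT2G19660 at 1 h stood at 7.06, 7.01 and 7.4 in the mutant and 7.59, 7.32 and 7.52 in wild type. For AT2G19660 the 24 h arrays gave 6.29, 6.18 and 5.86 in pif4pif5 and 7.27, 7.16 and 6.87 in wild type. It differed by -0.40 in darkness (adjusted p = 0.614) and by -0.99 at 24 h, again without overlap. AT2G19970 encodes a protein of the pathogenesis-related PR-1 type. Dark seedlings gave 7.37, 7.71 and 6.97 in pif4pif5 and 7.88, 7.52 and 7.71 in wild type for AT2G19970. For AT2G19970 the values at 1 h were 7.39, 7.01 and 6.84 in pif4pif5 and 7.71, 7.53 and 7.51 in wild type. AT2G19970 at 24 h stood at 6.34, 6.22 and 6.07 in the mutant and 7.38, 7.41 and 7.0 in wild type. Its dark groups overlapped (-0.35, adjusted p = 0.724), and the difference at 24 h was -1.05.

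In a last set the dark differences were close to 0. AT1G12070 was such a member. AT1G12070 values in darkness were 6.18, 6.33 and 6.51 in pif4pif5 and 6.27, 5.69 and 7.0 in wild type. The 1 h arrays gave 6.21, 6.24 and 6.26 in pif4pif5 and 6.53, 6.55 and 6.49 in wild type. After 24 h, pif4pif5 read 5.83, 5.1 and 5.44 and wild type 6.98, 6.86 and 6.27. The difference was 0.02 in darkness (SE 0.25, adjusted p = 0.998), with a sign that depended on the scaling, -0.29 at 1 h and -1.25 at 24 h. AT1G78720, of the SecY family of protein translocation channels, stood above its dark level at 24 h in both genotypes, by less in the mutant. Dark seedlings gave 4.67, 4.88 and 4.96 in pif4pif5 and 4.6, 4.24 and 5.63 in wild type for AT1G78720. AT1G78720 at 1 h stood at 4.66, 4.39 and 4.38 in the mutant and 5.15, 5.26 and 5.51 in wild type. After 24 h, pif4pif5 read 5.27, 4.9 and 5.52 and wild type 6.56, 6.11 and 6.32. From darkness to 24 h the mutant changed by 0.39 and wild type by 1.51. The genotypes differed by 0.01 in darkness (adjusted p = 0.998), where wild-type replicate C was the highest array, by -0.83 at 1 h and by -1.10 at 24 h.

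AT5G58750, related to plant steroid and enone reductases, was higher at 1 h than in darkness and at 24 h in both genotypes. In the dark, AT5G58750 read 4.92, 5.26 and 5.09 in pif4pif5 and 5.18, 4.72 and 5.51 in wild type. AT5G58750 at 1 h stood at 5.6, 6.1 and 6.59 in the mutant and 6.56, 6.5 and 6.3 in wild type. For AT5G58750 the 24 h arrays gave 4.52, 4.85 and 3.7 in pif4pif5 and 5.87, 5.49 and 4.43 in wild type. Its level at 1 h was above darkness by 1.01 in the mutant and by 1.32 in wild type. The genotypes overlapped in each condition, with differences of -0.05 in darkness (adjusted p = 0.998), -0.36 at 1 h and -0.91 at 24 h.

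The plastid genome contributed psbT, a small subunit of photosystem II, petG, a subunit of the cytochrome b6f complex, and rps12, a ribosomal protein whose probe set matches 2 plastid entries. These 3 met the rule at 1 h through 1 array. In the dark, psbT read 6.98, 5.81 and 6.93 in pif4pif5 and 7.36, 6.03 and 7.09 in wild type. psbT at 1 h stood at 3.34, 6.89 and 6.57 in the mutant and 6.69, 6.55 and 6.13 in wild type. For psbT the 24 h arrays gave 6.8, 7.13 and 6.24 in pif4pif5 and 8.02, 7.62 and 7.09 in wild type. Mutant replicate A at 1 h was far below every other array. Dark seedlings gave 6.34, 6.5 and 7.37 in pif4pif5 and 6.48, 5.93 and 7.26 in wild type for petG. For petG the values at 1 h were 3.75, 6.84 and 6.39 in pif4pif5 and 6.41, 6.09 and 5.52 in wild type. petG at 24 h stood at 6.29, 5.98 and 5.54 in the mutant and 7.03, 6.73 and 6.43 in wild type. The same array was lowest for petG, and for rps12 it read 3.81, against 8.15 and 7.61 on mutant replicates B and C. Without it the differences at 1 h were 0.27 for psbT, 0.61 for petG and 0.35 for rps12, so that none of the 3 would meet the rule. With it they were -0.86, -0.35 and -1.0. At 24 h the differences were -0.85 for psbT (SE 0.64), -0.79 for petG (SE 0.55) and -0.70 for rps12. In darkness psbT differed by -0.25 (adjusted p = 0.996) and petG by 0.18 (adjusted p = 0.997). Over all 77 plastid probe sets the medians were 0.04 in darkness, -0.36 at 1 h and -0.14 at 24 h, with 0 called in each.

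**Figure D5:**
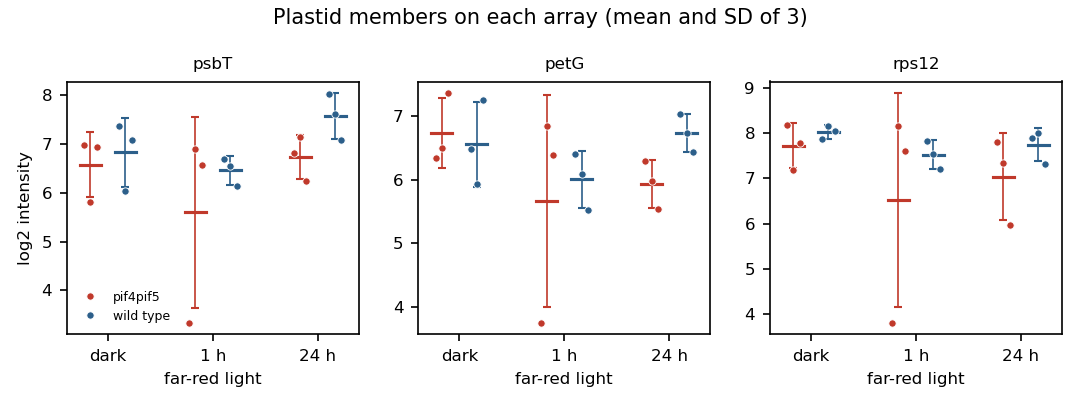
Log2 intensity (y axis) of the plastid members psbT, petG and rps12 on each array by condition (x axis), pif4pif5 in red left of wild type in blue; points are arrays, bars the mean and SD of 3 arrays. At 1 h a single mutant array reads 3.34, 3.75 and 3.81, and the other mutant arrays lie within or above the wild-type range.

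The other 28 members had a median difference of -0.77 at 24 h, against -0.91 over the 22 described on every array. They ran from -1.54 to -0.70 at 24 h and from -0.82 to 0.50 in darkness, with a median of -0.17. The dark groups did not overlap, with the mutant lower, for 7 of them, where 4.68% of all probe sets showed that separation. No gene was assigned to 17, several to 3 and 1 gene to 8, which are given by name for completeness although they fall outside the rule for named genes. AT4G16745, of the exostosin glycosyltransferase family, differed by -0.69 in darkness, -0.74 at 1 h and -0.80 at 24 h without overlap in any condition. AT2G28200, a C2H2 zinc finger factor, was apart in darkness (-0.48) and at 24 h (-0.75). The ethylene response factor family gene AT1G64380 differed by -0.07 in darkness and by -0.83 at 24 h, or -0.51 without mutant replicate B. AT2G39980, an acyltransferase, AT2G41640, a glycosyltransferase, AT2G16595, AT4G01140 and AT5G67390 had differences at 24 h between -0.70 and -0.85. Of the probe sets with several genes, that shared by the RING finger genes AT4G10160 and AT4G10150 stood at -0.82 in darkness and -1.28 at 24 h. That shared by the defensin-like genes AT5G33355 and AT3G59930 stood at -0.17 and -0.70. Signal from such a pair cannot be divided between its genes.

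The light response of the members was narrowed from below in wild type by the rule. The median change from darkness was -0.27 in the mutant and -0.07 in wild type at 1 h, and -0.67 in the mutant and -0.09 in wild type at 24 h. At 24 h, 44 members lay below their dark level in the mutant and 28 in wild type. An unnamed member changed most in wild type, by 2.45, and by 1.51 in the mutant. The increase of AT1G78720 in wild type was the next in size at 1.51, followed by 251497_at at 1.35, CLE44 at 0.81 and psbT at 0.75. These contrasts use the arrays on which the members were chosen and carry no test.

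Few genes of the pathways known for PIF action had a probe set assigned to them alone, and those that did were not called. No gene was assigned to 38.4% of all tested probe sets. Measured below means assigned in the probe table, so other listed genes may still be on the arrays. Over lists of phytochrome-interacting factors, far-red signalling, shade avoidance, auxin, gibberellin, ethylene, brassinosteroid, cell wall, photosystem and root genes, 28 distinct genes had a probe set of their own. None is a member, but the members without a single assigned gene could not be matched to a list. limma called 0 of the 28 in each of the 3 genotype comparisons, and at an unadjusted p under 0.05 there were 9 in darkness, 6 at 1 h and 8 at 24 h. These counts take both directions together. In darkness HYH and the 5 photosystem genes were higher in the mutant, and YUC2, GH3.1 and EXPA9 lower. At 1 h HYH and the photosystem genes other than LHCB4.1 were higher, and BIM1 lower. Those at 24 h were all lower. Over all probe sets, 5.3% were lower and 1.97% higher at that level in darkness, 1.06% and 2.99% at 1 h, and 4.98% and 3.29% at 24 h. Shade avoidance genes, 5 measured of 21, had median differences of -0.27 in darkness, 0.0036 at 1 h and -0.37 at 24 h. Auxin response genes, 5 of 26, had -0.27, -0.18 and -0.38, and IAA29, an auxin-response repressor counted in both lists, stood at -0.69 at 24 h. Cell wall genes, 7 of 22, had -0.13, 0.06 and -0.46, with the xyloglucan-modifying gene XTH18, whose close paralog XTH19 may share its signal, at -0.97 at 24 h and 0.14 at 1 h. Photosystem genes, 5 of 26, had 0.66, 0.49 and 0.18. The medians over all probe sets were -0.05, -0.02 and -0.0027. Gibberellin receptors, 3 of 15 listed genes, had -0.17, -0.21 and 0.02. SPATULA (SPT) and ALCATRAZ (ALC), the 2 measured of 12 bHLH genes, had 24 h differences of -0.45 and 0.05. HYH, 1 of 14 far-red signalling genes, stood at 0.72, 0.64 and -0.12. EIN3, 1 of 11 ethylene genes, had -0.08, -0.29 and -0.26, and the root gene EXPA7 had -0.19, 0.13 and 0.06. Of 11 brassinosteroid genes, 0 had a probe set assigned to them alone.

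Membership depended on single arrays. Leaving out 1 array at a time, the difference at 24 h stayed below 0 for all 50 members, but for 32 of them it passed above the limit of -0.7 at least once. At 1 h it passed above -0.2 for 17 members and above 0 for 3, the plastid ones. Mutant replicate B at 24 h had the largest pull, since the difference of 17 members came nearest to 0 without it, followed by wild-type replicate A at 24 h with 13. The rule met 36 to 83 probe sets when applied to such reduced sets. It met 83, 79 and 42 without mutant replicate C, A or B at 24 h, and 81, 79 and 36 without wild-type replicate C, B or A at 24 h. Over 20 settings, which were 2 other scalings and 18 omissions, 14 of the 50 members were found every time. Among those described on every array these were 251497_at, 245325_at, AT3G55940, UPB1, AT1G78720, AT1G12070, AT2G19970, AT2G19660 and AT5G26270.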

How the data were processed

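Transcript levels were measured on 18 Affymetrix arrays, 3 for each of 6 groups taken from the labels. The deposited values are log2 intensities that the authors made with RMA, per the submitters' processing notes. The sources used here do not give version, probe annotation or genome build. Values were used unchanged. Of 22810 probe sets, 64 controls were left out. Genes came from the platform's probe table, with symbols and gene order from assembly TAIR10.1. Using limma 3.58.1 (R 4.3.3), 6 group means were estimated jointly from the 18 arrays, with 5.91 prior and 12 residual degrees of freedom. p-values were adjusted by Benjamini and Hochberg's method over all 22746 probe sets, and calls were made under 0.05. An exact test of 3 arrays against 3 cannot go below 0.1. Precision is limited by the small number of arrays. Alternatives were other scalings, a dim-signal filter, a replicate block, array weights, a variance trend, smaller fits and omission of each array.

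The members, the gene lists and the tests were chosen with earlier results of these data known. Values on every array are given for the 12 single-gene members with the largest difference at 24 h, any called in darkness, the 4 brightest others, every one with a symbol of its own, and 2 unnamed probe sets. The promoter motifs planned for a search were not analysed here, and no sequence was used.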

Additional observations from a re-analysis of the deposited data

How the results depend on the processing

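Of the results that answer a comparison, 94 alternative values kept the size of the main value and 40 moved. The members' median differences moved by less than the spread between replicates under every alternative run. In darkness that spread was 0.39, larger than the median of -0.28 itself. Loss of the whole dark difference would therefore also have counted as kept, and no stability is read from it. Without wild-type dark replicate C the dark median was -0.15. Among single named members in darkness, 281 alternative values kept direction and side of the threshold, 4 passed it, 1 lost it and 20 changed sign. The count of members called lower in darkness (1) was 2 when arrays were quantile normalized, 2 when they were set to one median, 0 with only the 6 dark arrays, 0 among single-gene probe sets and 1 to 3 without 1 array. Over all probe sets, calls in darkness (6) were 11 with quantile normalization, 23 with a replicate block, 0 with only the 6 dark arrays, 3 with array weights, 11 with a variance trend, 1 among single-gene probe sets and 2 to 702 without 1 array, the last without wild-type dark replicate A. Calls at 1 h (6) were 11 without dim probe sets, 39 with a replicate block, 425 with array weights, 15 with a trend, 3 among single-gene probe sets and 2 to 52 without 1 array. Calls at 24 h (83) were 13 with only those 6 arrays, 225 with array weights, 40 among single-gene probe sets and 21 to 178 without 1 array, and 118 with the replicate block. The share of higher calls in darkness was 83.3% as deposited, 66.7% after a shift to one median, 33.3% with array weights and 6.27% (44 of 702) without wild-type dark replicate A. The rule met 37 probe sets when arrays were quantile normalized, 40 when they were set to one median, and 36 to 83 without 1 array. Dark separation was counted for 15 to 24 members without 1 array, the most without wild-type dark replicate B, where 11% of all probe sets showed it. Leaving out an array could not lower this count. The causes of these shifts were not tested.

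In darkness the sign turned under quantile normalization for AT1G12070 (-0.0029) and AT5G58750 (0.0014). Without 1 array the dark differences ran from -0.29 to 0.36 for AT1G12070, -0.28 to 0.42 for AT1G78720, -0.25 to 0.14 for AT5G58750, -0.65 to 0.13 for psbT, -0.14 to 0.53 for petG, -0.083 to 0.15 for AT3G19390, -0.47 to 0.21 for CLE44 and -0.38 to 0.019 for AT5G57655. These are members whose dark difference was small beside its error.

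Replicate letters are shared across groups. Same-letter arrays of both genotypes correlated in their deviations at 0.0152 to 0.451 within a condition. The median was 0.131, against -0.129 for different letters. Across conditions the medians were 0.113 for the same letter and -0.0891 for different letters. Deviations from a group's own mean cancel within the group, so positive same-letter values in part force negative different-letter values. 11 of 18 arrays correlated best with their own letter, and the number for letters given at random was not computed. The same-letter values were not always above 0.1, and the letters were not taken to pair samples in the main fit. Whether they mark a shared batch was not tested. With the replicate block 1 member was called in darkness.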
